A study of Mus musculus with 2 samples.

Results

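The MHC class II presentation genes are 10 mouse genes that carry peptide antigen to the cell surface and help CD4 T cells respond to it: H2-Aa, H2-Ab1, H2-Eb1, Cd74, H2-DMa, H2-DMb1, H2-Oa, Ciita, Cd86 and Cd80. They were chosen by symbol, all 10 were found, and they are 10 of the 31053 genes in the count matrices. The study profiled single mouse retinal cells 7 days after an intravenous dose of sodium iodate (NaIO3, an oxidant that kills the retinal pigment epithelium and then photoreceptors) or the same volume of phosphate-buffered saline (PBS). There was 1 library per treatment, each from the pooled retinas of 6 mice. The NaIO3 dose was 20 mg/kg, and the labels used here give no strain, genotype, sex or age. Both libraries are labelled as CD11b-positive microglia, but selection on CD11b beads is described for the NaIO3 pellets only. The kept cells numbered 5573 in PBS and 9261 in NaIO3.

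In the class II pathway, an alpha and a beta chain (H2-Aa with H2-Ab1, or H2-Eb1 with an alpha chain) pair in the endoplasmic reticulum around the invariant chain Cd74, which fills the peptide groove and steers the complex to endosomes. There H2-DM, built from H2-DMa and H2-DMb1, exchanges the remnant of Cd74 for antigen peptides, and H2-O, of which H2-Oa is a chain, restrains H2-DM. Ciita is the coactivator that switches on the class II genes in antigen-presenting cells, and Cd80 and Cd86 are the costimulatory ligands of T-cell CD28. Resting retinal microglia are known for low class II, and dendritic cells are the classical presenting cells.

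A common feature of class II promoters is a set of short boxes read by the RFX, CREB and NF-Y factors and by Ciita, so the promoters of members with a RefSeq entry were searched. Of the 10 members, 6 matched 7 promoters in the RefSeq table for GRCm38.p6: H2-Aa, H2-Eb1, H2-DMa (which has 2), H2-DMb1, H2-Oa and Cd80. No promoter was used for Cd74, H2-Ab1, Ciita and Cd86. The 4 stretches below are shown because they hold the Y box core on the gene's own strand shortly before the RefSeq start. The H2-DMb1 stretch, and the end of the H2-Oa stretch, lie inside the gene as GENCODE places its start, further upstream. They are in the reading direction of the gene, with capitals marking the Y box core ATTGG, its reverse complement CCAAT and the X box core GCAACNG.

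H2-Aa, chr17:34287824-34287923, minus strand: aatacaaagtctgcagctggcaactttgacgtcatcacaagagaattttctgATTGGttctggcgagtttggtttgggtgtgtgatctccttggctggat

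H2-Eb1, chr17:34305767-34305866, plus strand: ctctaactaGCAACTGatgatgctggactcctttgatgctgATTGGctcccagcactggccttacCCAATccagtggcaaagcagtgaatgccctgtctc

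H2-DMb1, chr17:34153110-34153139, plus strand: ctaggctgattcactcagtgATTGGtctga

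H2-Oa, chr17:34092316-34092345, plus strand: tatctcagagaactgctctgATTGGctgct

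In all 4 the letters TGATTGG occur, a search chosen after these sequences were seen. They begin at position −50 in H2-Aa, −61 in H2-Eb1, −63 in H2-DMb1 and −45 in H2-Oa, counting from each RefSeq start. On the gene's strand within 100 bases before the start, 2.32% of the 32817 promoters hold TGATTGG. The core ATTGG on either strand is in 37.4% of them. H2-Eb1 also has an X box core followed by a Y box core 25 bases later. That pair, with a spacing of 15 to 30, is in 0.283% of promoters. In H2-DMa, ATTGG was found in 1 of its 2 promoters, at −198, and in Cd80 it was not found, which says only that these letters are not in this window. These are matches of letters, and no measurement of factor binding was used. In GENCODE's GRCm38 annotation, H2-Aa spans chr17:34282744-34287823 (minus strand), H2-Ab1 chr17:34257689-34269419 and H2-Eb1 chr17:34305867-34316674 (both plus). H2-DMa spans chr17:34119541-34139101, H2-DMb1 chr17:34153072-34160230 and H2-Oa chr17:34092340-34095234 (all plus). Ciita spans chr16:10480059-10528418 (plus), Cd86 chr16:36603869-36666081 (minus) and Cd80 chr16:38455561-38496335 (plus). Cd74 is on chromosome 18. All are protein-coding genes counted as a whole. H2-DMa shares exon positions with Brd2 on the opposite strand, and Ciita with Dexi. Which strand was counted is not known from the labels or headers. In C1q-high, dendritic-like and rod-like cells of the NaIO3 library Brd2 was at 211, 211 and 254 CPM (UMIs of a gene for every 1000000 UMIs of its class), while H2-DMa was at 251, 583 and 1.65 CPM.

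Cells with at least 0.3% of their UMIs (molecule counts) from C1qa, C1qb and C1qc, complement genes of microglia and macrophages, are called C1q-high. There were 1697 in NaIO3 and 15 in PBS. The threshold divides a continuous range: in NaIO3, 124 cells lay at 0.3 to 0.4% and 92 at 0.2 to 0.3%. In the NaIO3 C1q-high cells the microglial marker list had a median of 3099 CPM per cell. The macrophage list was at 729 CPM, the monocyte list at 425 CPM, the dendritic list at 171 CPM and the rod list at 544 CPM. Other NaIO3 cells fell into clusters, made without the members: 89 dendritic-like cells, 54 NK or T cell-like cells and 151 endothelial-like cells. No cluster met the naming rules for monocytes. The 204 remaining immune-cluster cells with less C1q are called C1q-low immune; there 6 of 13 monocyte markers passed 50 CPM, Chil3, Hp and Ace were at 0, and rod markers summed to 4718 CPM. The label CD11b-positive microglia did not describe most cells: rod-like cells were 56.9% of the NaIO3 library and 92.3% of the PBS library. The files held 24 barcodes in common. Intervals below are 95% exact Poisson or binomial intervals. They cover counting error only, and with 1 library per treatment there was no test.

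Class II RNA in the NaIO3 library was found mainly in immune cells. The sum of H2-Aa, H2-Ab1, H2-Eb1 and Cd74, called the class II sum, came to 241360 UMIs, or 3256 CPM, in all kept NaIO3 cells. C1q-high cells held 70.7% of these UMIs as 18.3% of the cells. Dendritic-like cells held 18% as 0.961% of the cells, and rod-like cells held 0.245% as 56.9% of the cells. The whole PBS library had 92 class II UMIs, or 3.97 CPM, in 6 cells.

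By class, the class II sum was highest per UMI in dendritic-like cells and lowest among the immune classes in C1q-high cells. With called doublets kept, C1q-low immune cells were instead at 0.786 of the C1q-high level. It was 38262 CPM (37902 to 38624) in dendritic-like cells and 12259 CPM (12011 to 12511) in C1q-low immune cells. It was 9883 CPM in NK or T cell-like cells and 7837 CPM (7799 to 7874) in C1q-high cells. Endothelial-like cells were at 236 CPM (207 to 269), and rod-like cells at 34.8 CPM (32.0 to 37.7). These 6 counting intervals do not overlap. Between libraries of one class the spread is unknown, so the order describes these libraries.

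**Figure D1:**
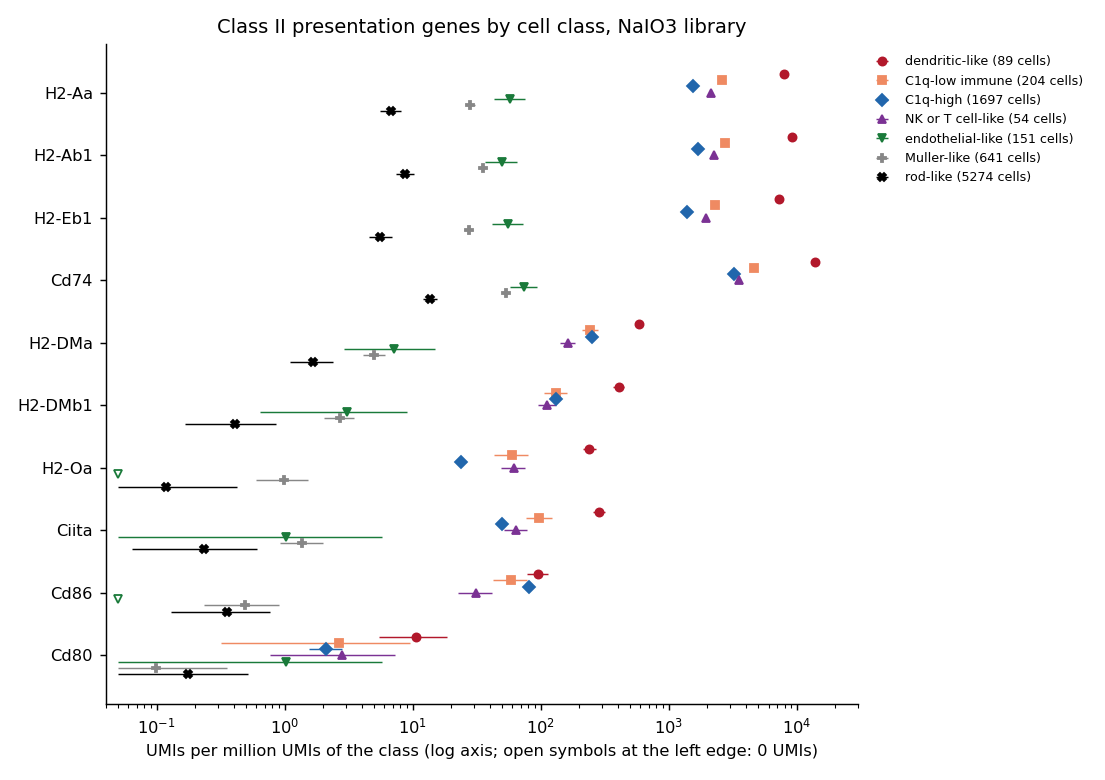
CPM (log axis) of each of the 10 members (rows) in 7 cell classes of the NaIO3 library, with 95% counting intervals and with 0 UMIs as open symbols at the left edge, where low intervals are clipped. Dendritic-like cells have the highest level of each gene, from 10.6 CPM for Cd80 to 13938 CPM for Cd74.

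The class II chains and the invariant chain had the same order of levels across the 4 classes named here, except that C1q-low immune cells were below C1q-high cells with called doublets kept, and for Cd74 also as a mean over cells and with a gate of 1%. The alpha chain H2-Aa was at 1529.7 CPM in C1q-high, 2622 in C1q-low immune, 7864 in dendritic-like and 57.5 in endothelial-like cells. Its partner H2-Ab1 was at 1701 CPM, 2731 CPM, 9151 CPM and 49.3 CPM in the same order. The beta chain H2-Eb1 was at 1376 CPM, 2276 CPM, 7308 CPM and 55.5 CPM. For Cd74, the chaperone of the pairs, the values were 3229 CPM, 4629 CPM, 13938 CPM and 74.0 CPM. The share of the class II sum made up by Cd74 was 31.3% in endothelial-like, 36.4% in dendritic-like, 37.8% in C1q-low immune and 41.2% in C1q-high cells.

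The peptide-exchange genes and Ciita were also highest in dendritic-like cells, but H2-DMa and H2-DMb1 were at about the same level in C1q-high and C1q-low immune cells. H2-DMa, a chain of the exchange factor, was at 251 CPM in C1q-high, 243 CPM in C1q-low immune and 583 CPM in dendritic-like cells. H2-DMb1, its partner, was at 131 CPM, 130.5 CPM and 404 CPM. Its close paralog H2-DMb2, which could share reads with it, was at 29.5 CPM in C1q-high and 267 CPM in dendritic-like cells. H2-Oa, the restraining chain, was at 23.8 CPM in C1q-high, 59.3 CPM in C1q-low immune and 239 CPM in dendritic-like cells. None of its UMIs lay in 151 endothelial-like cells, which allows up to 3.79 CPM by the exact interval. The regulator Ciita was at 50.2 CPM, 97.5 CPM and 284 CPM in the 3 immune classes. It had 1 UMI in the endothelial-like cells.

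Of the costimulatory ligands, Cd86 followed another pattern. Cd86 was at 80.9 CPM (77.2 to 84.8) in C1q-high, 58.0 CPM (42.1 to 77.9) in C1q-low immune and 94.5 CPM (77.4 to 114) in dendritic-like cells, and at 0 in endothelial-like cells. The C1q-high and dendritic-like intervals for Cd86 overlap. As a mean over cells, Cd86 was at 56.3 CPM in C1q-high and 93.5 CPM in dendritic-like cells. Cd80 was scarce, with 46 UMIs in the C1q-high cells and 12 in the dendritic-like cells, too few for the minimum of 20 CPM. Its ratio of dendritic-like to C1q-high cells was 5.01 (2.42 to 9.62). The NK or T cell-like cells carried 1237 CPM of C1q genes, beside 1242 CPM in C1q-low immune and 628 CPM in dendritic-like cells. By these genes each was a mixed class. In NK or T cell-like cells the class II sum was 1.26 times that of C1q-high cells (1.24 to 1.28). Of 9 members there, H2-Oa at 2.58 was at least 2 times higher, where 6.56% of 6773 genes were, and Cd86 at 0.383 at least 2 times lower, where 11.6% were. Doublets of these cells with C1q-high cells were not tested.

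Dendritic-like cells had more of nearly every member than C1q-high cells of the same library. Of the 9 members with enough UMIs, 8 were at least 2 times higher, where 5.89% of the 6569 genes measured were; none was at least 2 times lower, where 12.4% were. The members' median log2 ratio was 2.36 and that of all genes measured −0.20. The class II sum was 4.88 times higher (4.83 to 4.93). The ratio was 5.14 for H2-Aa, 5.38 for H2-Ab1, 5.31 for H2-Eb1 and 4.32 for Cd74. H2-Oa had the widest gap, at 10.1 times (8.66 to 11.7), followed by Ciita at 5.67 times (4.99 to 6.42). For H2-DMb1 it was 3.09 and for H2-DMa 2.32 (2.14 to 2.52). Cd86 differed by 1.17 times, with an interval (0.951 to 1.42) that includes 1. In the peptide-exchange list, 5 of 5 genes were at least 2 times higher, H2-DMb2 at 9.08 and H2-Ob at 8.21. H2-Ob passed the minimum of 20 CPM only through the dendritic-like cells, so it could not be lower and is no support.

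Other lists of the pathway held fewer genes that were higher. Of the lysosomal proteases that degrade antigen and Cd74, 5 of 5 measured were at least 2 times lower in dendritic-like cells, with Ctsd at 0.0889 and Lgmn at 0.106 of the C1q-high level. Of the transcription list, 1 of 6 measured genes was at least 2 times higher, Ciita itself; Rfx5 and Rfxank were under 20 CPM in both classes and not measured. Of the costimulation list, 1 of 3 was higher, Cd40 (the receptor for T-cell CD40L) at 3.12. Of the coinhibition list, Cd274 (PD-L1) was higher at 2.38 and Vsir lower at 0.369. Cd40 and Cd274 passed the minimum of 20 CPM only through the dendritic-like cells, so they could not be lower. The interferon-gamma list had 2 of 9 higher, Cxcl9 and Jak2. The type I interferon list had 1 of 10 lower, Mx1, which is near the share of all genes that were lower. Of 8 MHC class I genes measured none passed 2 times in either direction, and neither did the 2 surface-turnover genes measured. The homeostatic microglia list had 5 of 6 lower, the disease-associated list 7 of 10 lower and the proliferation list 6 of 6 lower. P2ry12 (46.6 CPM in C1q-high, 3.53 CPM in dendritic-like cells) passed the minimum of 20 CPM only through the C1q-high cells and had to be lower. Other genes of the lists in this paragraph that passed through 1 class only were not counted, so these list counts are no support. Of 8 cytokine genes, 6 were lower, and Il1b was 5.99 times higher.

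**Figure D2:**
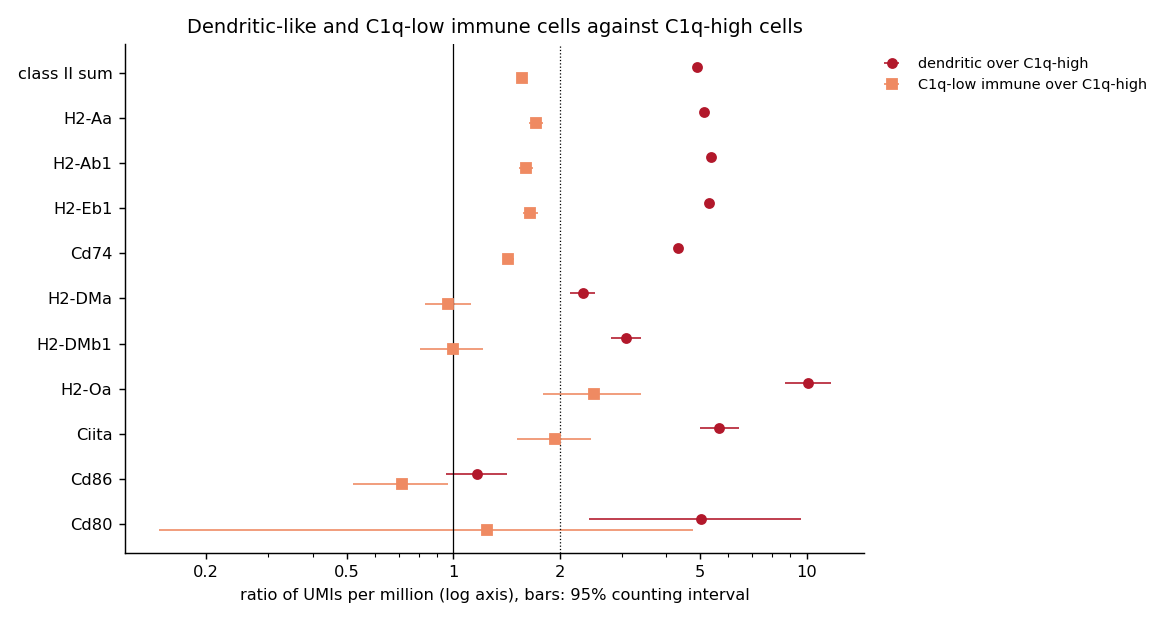
Ratio of the CPM of the class II sum and of each member in dendritic-like and in C1q-low immune cells to that in C1q-high cells of the NaIO3 library (log axis, 95% counting intervals; solid line at 1, dotted line at 2). Dendritic-like ratios run from 1.17 for Cd86 to 10.1 for H2-Oa, and those of C1q-low immune cells from 0.717 to 2.50.

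Some C1q-high cells lie in the clusters of other immune types. The gate took 44 cells of the dendritic-like cluster (20898 CPM of the class II sum, median 29276 UMIs) and 107 of the NK or T cell-like cluster (8450 CPM, median 46036 UMIs). Without them, 1546 C1q-high cells were at 6050 CPM (6009 to 6090) with a median of 2202 UMIs. Against those, dendritic-like cells were 6.32 times higher in the class II sum, 19.0 times in H2-Oa and 8.59 times in Ciita, while Cd86 was at 1.14. The dendritic marker list had 11 of 17 genes at 50 CPM or more in the 44 cells, and the NK or T cell list 11 of 14 in the 107. The dendritic-like cells had a median of 2089 CPM of the dendritic list per cell and 2159 CPM of the monocyte list. The part of these cells in the levels of the C1q-high class was measured only by leaving them out.

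C1q-low immune cells differed less from C1q-high cells. The class II sum was 1.56 times higher (1.53 to 1.60). Of 9 members, 1 (H2-Oa, at 2.50) passed 2 times, where 9.56% of 7057 genes did, and none was at least 2 times lower, where 6.08% were. Ciita was at 1.94 times (1.52 to 2.46), H2-DMa at 0.967 and H2-DMb1 at 0.997. Cd86 was at 0.717 (0.519 to 0.966). With called doublets kept, the class II ratio was 0.786, the opposite direction, and with minimums of 1500 UMIs and 800 genes, where the class also held the dendritic cells, it was 3.30. Of the peptide-exchange list 3 of 5 were at least 2 times higher, H2-DMb2 at 3.22, H2-Oa at 2.50 and H2-Ob at 2.70. H2-Ob passed the minimum of 20 CPM only through the C1q-low immune cells, so it could not be lower. Of the proteases, 5 of 5 measured were at least 2 times lower. Rod markers (8 of 8 at 50 CPM or more) and red-cell markers (4 of 5, summing to 1665 CPM) also lay in these cells, and their part in the result was not tested.

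Endothelial-like cells were far below the immune classes. Against C1q-high cells, 9 of 9 measured members were at least 2 times lower, where 19.7% of 8032 genes were, and 0 were at least 2 times higher, where 28.3% were. Of the 9, H2-DMa, H2-DMb1, H2-Oa, Ciita and Cd86 passed the minimum of 20 CPM only through the C1q-high cells, so they had to be lower and the count is no support. H2-Oa and Cd86 had 0 UMIs and were compared at the level 3 UMIs would give. The class II sum was at 0.0302 of the C1q-high level (0.0264 to 0.0343). That ratio was 0.191 with a gate of 1%, 0.0790 as a mean over cells and 0.0185 with a gate of 0.1%, lower in endothelial-like cells each time. It was 6.79 times the rod-like level (5.81 to 7.92): H2-Eb1 by 9.92 times, H2-Aa by 8.5, H2-Ab1 by 5.62 and Cd74 by 5.42. In rod-like cells these genes were at 5.59 to 13.7 CPM, and the other members were under 20 CPM in both classes. C1q genes, which endothelium should lack, were at 229 CPM in endothelial-like and 47.7 CPM in rod-like cells. The part of RNA from other cells in this result was not tested. The 5 endothelial-like cells with the most held 29.6% of the class II UMIs, and without them the class was at 170 CPM. The type I interferon list had 4 of 10 genes at least 2 times higher in endothelial-like than in C1q-high cells (Ifit1, Ifit3, Ifitm3 and Rsad2) and summed to 2.79 times its C1q-high level. Muller-like glia were at 144 CPM, but 5 of 641 cells held 70.0% of it and the others were at 43.8 CPM, near the 34.8 CPM of rod-like cells.

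At equal depth, class II UMIs were found in some C1q-high cells and not in others. With each cell thinned to 1000 UMIs, 58.0% (55.3 to 60.7) of 1344 C1q-high cells had a class II UMI; 353 shallower cells were left out and the unthinned share was 70.4%. The dendritic-like share was 95.5% of 89, the C1q-low immune share 46.6% of 103, the endothelial-like share 26.2% (19.3 to 34.0) of 149. Rod-like cells are not known to make class II, and there it was 3.27% of 4643. Shallower cells left out numbered 0 dendritic-like, 101 C1q-low immune, 2 endothelial-like and 631 rod-like, and the unthinned shares were 98.9%, 43.6%, 42.4% and 8.80%. Median depths before thinning were 12717 UMIs in dendritic-like, 1004 in C1q-low immune and 2370 in rod-like cells. A C1q-high cell thinned to 1000 UMIs held a median of 1 class II UMI and a dendritic-like cell 45. The 135 C1q-high cells with the most held 53.8% of their class II UMIs, and 21.6% of cells had 10 or more. Outside the 2 other immune clusters, 54.4% had a UMI and 18.3% had 10 or more.

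**Figure D3:**
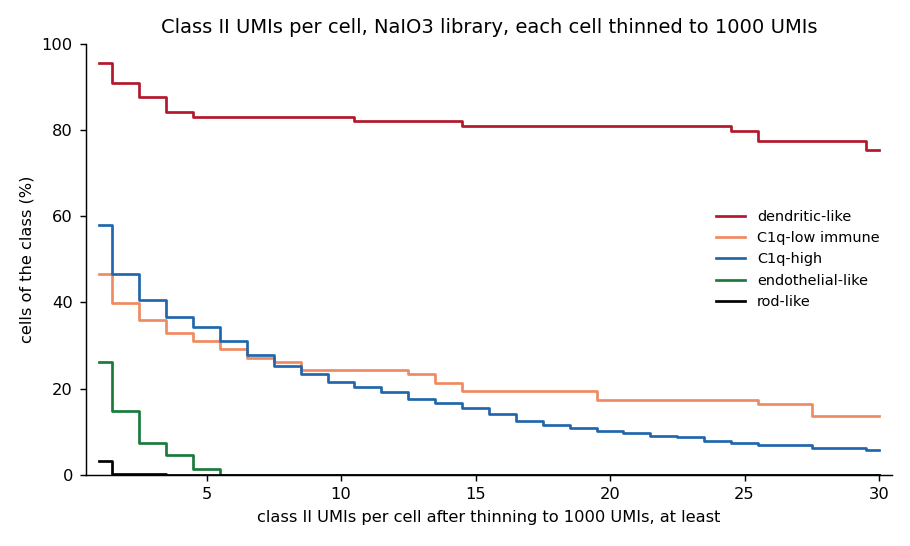
Percent of cells (vertical axis) with at least the given number of class II sum UMIs (horizontal axis) after thinning to 1000 UMIs, in 5 NaIO3 cell classes. The C1q-high line falls from 58.0% at 1 UMI to 21.6% at 10, the dendritic-like line from 95.5% to 83.1%, and no rod-like cell had more than 5.

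The level also differed with the depth of the cell. Class II CPM in C1q-high cells was 4754 at 500 to 1000 UMIs and 4682 at 1000 to 3000. It was 6342 at 3000 to 10000, 7143 at 10000 to 30000 and 8664 above that. Outside the dendritic-like and NK or T cell-like clusters the values were 4767, 4682, 6428, 5537 and 6721.

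**Figure D4:**
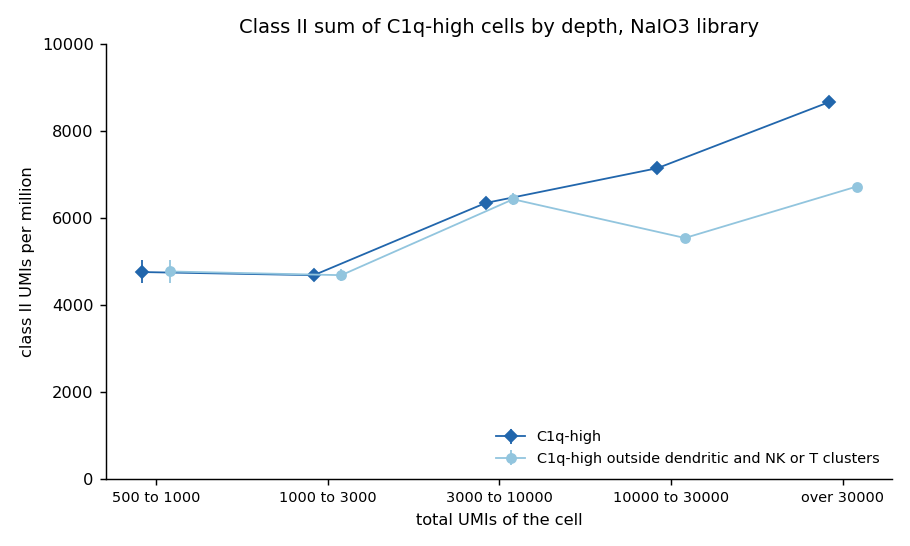
Class II sum CPM of C1q-high cells of the NaIO3 library by UMIs per cell, in 5 bins, with and without cells of the dendritic-like and NK or T cell-like clusters (95% counting intervals). At 1000 to 3000 UMIs both series are at 4682 CPM; above 30000 they are at 8664 and 6721 CPM.

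The chains were found in the same cells. Among thinned C1q-high cells, 78.1% of 470 with an H2-Aa UMI had an H2-Ab1 UMI against 12.7% of 874 without. For H2-Eb1 this was 73.2% against 9.84%, and for Cd74 91.9% against 29.6%. H2-DMb1 was in 16.8% against 5.03%, H2-DMa in 26.0% against 17.4%, and Ciita in 5.32% against 0.801%. Cd86 was in 7.45% (5.24 to 10.2) against 4.92% (3.58 to 6.57), intervals that overlap. These cells include 43 of the dendritic-like cluster and 107 of the NK or T cell-like cluster. Those held medians of 27 and 6 class II UMIs, against 1 in the rest, and their part in the pairs was not tested. All are cells of 1 library, so the pairs are a description.

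Cells with and without class II UMIs were compared outside the 2 other immune clusters, 649 against 545 thinned cells, whose median depths before thinning were 4058 and 4046 UMIs. Ciita had 19 UMIs in the first and 0 in the second, at least 5.32 times higher. H2-DMb1 was 4.33 times higher (2.63 to 7.50), H2-DMa 1.21 (0.956 to 1.54) and Cd86 1.34 (0.834 to 2.20). Il1b, a pro-inflammatory cytokine, was 2.37 times higher (1.46 to 4.0). Spp1 and Ctsd, genes of phagocytic microglia, were at 0.467 and 0.584, the chemokine Cxcl10 at 0.341 and Mrc1 (a mannose receptor of macrophages) at 0.379. C1q genes were at 1.02, the microglial marker list at 0.823 (0.777 to 0.872) and the homeostatic microglia list at 0.833 (0.760 to 0.914). P2ry12, a receptor on both lists, was at 1.07 (0.618 to 1.86). The interferon-gamma list was at 1.12 (0.969 to 1.29) and the dendritic marker list at 1.4 (1.15 to 1.71). The part of dendritic cells within the gate in these differences was not tested.

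Subclusters of the C1q-high cells spread 3.18-fold in class II. Among 8 subclusters of at least 20 cells, class II CPM ran from 2451 (subcluster 4, led by haemoglobin genes) to 7805 (subcluster 5, led by Bc1, AY036118 and Nefl, with a median of 1084 UMIs per cell), and cells with a class II UMI from 45.8% to 63.4%. Subcluster 3, led by Gpnmb, Spp1 and Fabp5 (48 cells), was at 4491 CPM. Of the 2 subclusters led by cell-division genes, subcluster 1 (Mki67, Top2a; 112 cells) was at 5971 CPM and subcluster 6 (Nusap1, Birc5; 221 cells) at 3052 CPM. Of the 2 led by Saa3 and Ccl8, subcluster 2 (277 cells) was at 6390 CPM and subcluster 7 (145 cells) at 2797 CPM. Subclusters led by like genes thus differed in class II CPM, but also in depth. Median UMIs per cell were 26382 in subcluster 1, 1827 in subcluster 6, 15086 in subcluster 2 and 1430 in subcluster 7. Of thinned cells, 49.1% (39.5 to 58.7) in subcluster 1 and 50.3% (42.5 to 58.1) in subcluster 6 had a class II UMI. The share was 55.6% (49.5 to 61.5) in subcluster 2 and 45.8% (35.6 to 56.3) in subcluster 7. Intervals overlap within each pair. The part of depth in the CPM differences was not tested.

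In PBS, C1q-high cells were 15, 2 of them in rod-like clusters, with 51217 UMIs. They had 85 class II UMIs, 1660 CPM (1326 to 2052), against 7837 CPM in NaIO3. A single cell held 84 of the 85: H2-Aa 12, H2-Ab1 22, H2-Eb1 24 and Cd74 26, among 1647 UMIs with 5 C1q UMIs (0.304%, just inside the gate) and 0 P2ry12 UMIs. A second cell had 1 Cd74 UMI and the other 13 had none. The ratio of NaIO3 to PBS was 4.72 (3.82 to 5.91); without that cell it was 388 (69.7 to 15343), resting on 1 UMI. With that cell it was 1.77 as a mean over cells, where H2-Eb1 turned direction (0.959), and 7.48 with TMM scaling and 7.30 with median-of-ratios scaling. With a gate of 1% it was 276, and with minimums of 1500 UMIs and 800 genes at least 110. On summed UMIs, 4 of 9 members (H2-Aa, H2-Ab1, H2-Eb1 and Cd74) were at least 2 times higher in NaIO3, where 11.9% of 7315 genes were, and 0 were at least 2 times lower, where 28.6% were. Of the 9, Ciita and H2-Oa passed the minimum of 20 CPM only through NaIO3. They could not be lower, and Ciita had no usable ratio in either direction.

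For the other members with a ratio, the interval included 1. H2-DMa was at 234 CPM in PBS (12 UMIs in 6 cells) and 251 CPM in NaIO3, a ratio of 1.07 (0.612 to 2.07). H2-DMb1 was at 97.6 CPM in 5 cells, a ratio of 1.34 (0.574 to 4.13). Cd86 was at 156 CPM (8 UMIs) and 80.9 CPM, a ratio of 0.518 (0.262 to 1.20). H2-Oa and Cd80 had 1 UMI each. Ciita had 0 in PBS, which allows up to 72.0 CPM, above its NaIO3 level, so a difference was not detectable at this depth. Monocyte markers were at 0 in all 15 cells. At 1000 UMIs, 1 of 10 PBS cells had a class II UMI, and 2 of 15 (13.3%, 1.66 to 40.5) before thinning.

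Other genes of these cells also differed between the libraries. The microglial marker list had a median of 12966 CPM per cell in PBS and 3099 CPM in NaIO3. Of the homeostatic microglia genes, 9 of 9 were at least 2 times lower in NaIO3, where 28.6% of 7315 genes were. Sall1 (273 CPM in PBS, 4.55 CPM in NaIO3), Slc2a5 and Crybb1 passed the minimum of 20 CPM only through PBS. These genes had to be lower, so the count is no support. Of the type I interferon list 5 of 10 were at least 2 times higher, and of the MHC class I list 3 of 8 (H2-K1, Psmb9 and Tap2), where 11.9% of all genes measured were. The interferon list summed to 58.6 CPM in PBS, so most of its genes passed the minimum only through NaIO3. Of the peptide-exchange list 0 of 5 were higher and 1, H2-Ob, was lower. H2-Ob passed the minimum of 20 CPM only through PBS, on few UMIs, so it could not be higher and its call is no support. Only the NaIO3 pellets are described as bead-selected, so treatment, selection and library cannot be told apart. In rod-like cells PBS had 1 class II UMI in 16590045 and NaIO3 had 34.8 CPM, and the part of free RNA in the C1q-high difference was not tested. Muller-like cells had 4 class II UMIs in 23 PBS cells, a ratio of 7.48 (2.92 to 27.5), and the 3 PBS endothelial-like cells had 1. No PBS cell fell in the dendritic-like, NK or T cell-like or C1q-low immune classes.

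**Figure D5:**
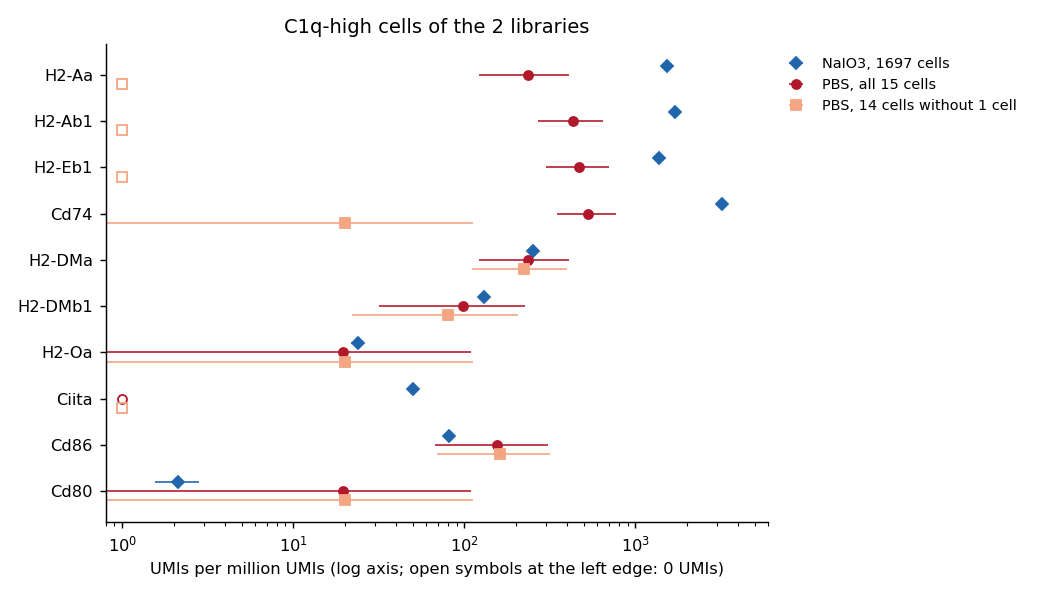
CPM of each member in C1q-high cells of the PBS (15 cells) and NaIO3 (1697 cells) libraries, log axis, 95% counting intervals; open symbols at the left edge are 0 UMIs, intervals of values from 1 UMI run off that edge, and squares are the 14 PBS cells left without the 1 cell. On summed UMIs the 4 class II sum genes are higher in NaIO3, with 84 of their 85 PBS UMIs in 1 cell; as a mean over cells H2-Eb1 is not (0.959).

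Genes whose levels across 10 NaIO3 cell classes were most like the class II sum (highest correlation of log CPM over 7068 genes; r from 0.986 to 0.990) were Cytip, Gpr183, Csf2rb, Spi1, Il1b, Phf11a, Plbd1, Plac8, Rnase6 and Bcl2a1d. The classes share 1 library and this is a description.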

How the data were processed

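The authors deposited gene-by-barcode matrices of raw UMI counts, made with Cell Ranger 3.0.2 per the file headers against mm10 (a build named in the submitters' processing notes). No label or header gives the kit's read end, counting strand or annotation release. Totals were 26605477 UMIs over 6242 barcodes (PBS) and 75981079 over 9746 (NaIO3). Cells needed 500 UMIs, 300 genes and at most 15% mitochondrial UMIs. Doublets were called with Scrublet in scanpy 1.11.5 at an expected rate of 6%, and 180 of 9441 (1.91%) were removed in NaIO3. In PBS 0 of 5573 were called, far below the expected rate, so doublets may remain there. Cells were clustered (2000 variable genes, 30 components, 15 neighbours, Leiden resolution 0.8) without the members and their class II relatives. Clusters were named where 3 markers reached 50 CPM and the next type scored under 0.7 of the best; this scoring was written after clusters were seen, and shares may depend on it. The gate came first, then the clusters.

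Levels are summed UMIs per class in CPM. A gene counted as measured in a comparison with 20 CPM in either class and 20 UMIs over both, and as called past 2-fold. Ratios have conditional binomial intervals. Settings were varied with edgeR 4.0.16 (TMM scaling) and other alternatives. Counts over 6325 genes (dendritic-like over C1q-high) were simulated with Poisson error only and 198 genes changed 4-fold up or down. Of the changed genes 99.49% were called, and of the others 0.1306%. The planted change lay well past the 2-fold call, so high recall was built in. The simulation held no spread between cells or animals and does not test the calls made here. With 1 library per treatment there is no test over samples. Named genes are the members, up to 4 genes a list with the largest ratio, and the 10 genes most like the class II sum. Leading genes of subclusters, Mrc1, Il1b, Cxcl9, Jak2, Mx1 and the lists' other named genes beyond that were named after their values were seen. The members and lists were chosen with earlier results of these data known.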

Additional observations from a re-analysis of the deposited data

How the results depend on the processing

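Of 58 alternative values of the compared class II sums, shares and counts, 21 counted as unchanged, 36 moved further and 1 changed direction. For sums and shares, unchanged meant inside the main counting interval. The count of members has no interval, so there it meant within a set fold of the main count, which every alternative met. Of 386 values of single members, 217 stayed inside the interval, 160 moved further and 9 changed direction. The causes were not tested. The ratio of NaIO3 to PBS in C1q-high cells (4.72) was 7.48 with TMM, 7.30 with median-of-ratios scaling, 1.77 as a mean over cells, 6.76 and 276 with gates of 0.1% and 1%, at least 110 with minimums of 1500 UMIs and 800 genes, 3.59 with 5% mitochondrial UMIs, 3.65 outside the other immune clusters and 388 without the 1 PBS cell. H2-Eb1 was at 0.959 as a mean over cells. Dendritic-like over C1q-high cells (4.88) was, in the same order and without the 1500 UMI setting and the PBS cell, 5.40, 5.44, 6.23, 5.09, 4.35, 5.56 and 6.32, and 5.41 with doublets kept and 5.47 at Leiden resolution 1.4; no such cluster was found at 1500 UMIs. C1q-low immune over C1q-high cells (1.56) was, in the same order, 1.37, 1.38, 1.18, 2.23, 1.05, 3.30 (where it holds the dendritic cells), 1.48 and 2.03, 1.68 at resolution 1.4 and 0.786 with doublets kept. With doublets kept H2-Aa was at 0.887, H2-Ab1 at 0.777, H2-Eb1 at 0.788, Cd74 at 0.742 and Ciita at 0.975; as a mean over cells Cd74 was at 0.963 and Ciita at 0.962, and with the 1% gate Cd74 was at 0.974. Endothelial-like over C1q-high cells (0.0302) was 0.0216, 0.0220, 0.0790, 0.0185, 0.191 and 0.0391 for TMM, median-of-ratios, the mean over cells, both gates and outside the other clusters. The share of C1q-high cells with a class II UMI (58.0%) was 48.6% at 500 UMIs, 74.0% at 3000 and 54.4% outside the other clusters. The 8 members higher in dendritic-like cells numbered 7 to 9. No paired analysis was possible because each treatment has 1 library.

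Replicates, and so the spread between animals, are missing. The 15 PBS C1q-high cells limit every comparison between treatments, and treatment, bead selection and library cannot be told apart. Depth limits Cd80 and H2-Oa, and Ciita in PBS.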
